A study of Homo sapiens with 35 samples.

Results

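The 6 genes described here encode ligands of the tumour necrosis factor (TNF) superfamily: TNFSF18, TNFSF4, FASLG, TNFSF9, TNFSF10 and TNFSF15. They were chosen by name, with earlier results of these data known. TNFSF18, TNFSF4 and FASLG lie next to each other on chromosome 1, and the first pair had been seen to be far higher in the shCDK8 line. All 6 of 6 were measured, each by 1 array row that carries no other gene symbol, among 18404 genes with such a row.

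Ligands of this family are type II membrane proteins whose extracellular part forms trimers and can be shed as a soluble protein. They bind receptors of the TNF receptor superfamily. Some receptors carry a death domain and can start apoptosis through FADD and caspases, and others recruit TRAF proteins and switch on NF-kB. TNFSF18 (GITR ligand), TNFSF4 (OX40 ligand) and TNFSF9 (4-1BB ligand) are co-stimulatory ligands best known from antigen-presenting cells, where they act on T cells. TNFSF18 and TNFSF4 are also known from activated endothelium. FASLG (Fas ligand) and TNFSF10 (TRAIL) are death ligands of cytotoxic lymphocytes and other cells, and TNFSF15 (TL1A) is a ligand of the death domain receptor TNFRSF25 with a known role in gut inflammation. CDK8 and its close relative CDK19 are kinases that attach to Mediator, a large co-activator of RNA polymerase II.

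The study measured total RNA of HCT116, a human colorectal carcinoma cell line, on 35 arrays in 14 groups, with 2 or 3 arrays a group. An shCDK8 line (a short hairpin RNA against CDK8) and an shCDK19 line (a hairpin against CDK19) were set against an shControl line with a non-target hairpin, so every group carries a hairpin. The lines were compared untreated in normal growth (3 arrays a line), after 12 h of 5-fluorouracil (5FU, a drug that blocks thymidylate synthesis, 2 arrays a line), after 24 h in low glucose medium (3 arrays a line) and after 24 h at 1% oxygen (hypoxia, 2 arrays a line). shControl cells alone were also measured in DMSO, the solvent control (2 arrays), and in high glucose medium (3 arrays). Each target is represented by 1 hairpin line, so an effect of losing the kinase and other properties of that line cannot be told apart. Cells of a knockdown line in DMSO, in high glucose or at normal oxygen beside the hypoxic cells were not analysed here. Nothing in the labels says that replicates came from separate cultures, so each p-value rests on the spread among arrays, which may be technical.

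Values are the deposited log2 expression values, which share a floor of 4.32 (20 on the linear scale) that shortens differences of dim genes. Array rows differ in their probes, so a level is compared between groups and never between genes. Depth has no meaning for arrays, whose number limits the precision instead. The array row shared by CDK8 and another gene read 7.58 to 8.53 on the shCDK8 arrays, 10.17 to 10.85 on the shCDK19 arrays and 9.79 to 10.96 on the shControl arrays. CDK19 read 6.57 to 8.35 on the shCDK19 arrays, 7.83 to 9.93 on the shCDK8 arrays and 7.63 to 9.84 on the shControl arrays. Arrays of a group correlated at 0.976 to 0.998 across rows. The lowest value belonged to the pair of hypoxic shControl arrays, and replicate 1 of shCDK8 cells in normal growth also stood apart (0.987 at the lowest in its group). The epithelial markers EPCAM, KRT8, KRT18 and KRT19 lay between 10.59 and 13.39 on all arrays, while those of differentiated colon epithelium were dimmer (CDH17 at 4.64 to 5.25, VIL1 at 5.99 to 6.97). Of 9 epithelial markers 3 were higher and 2 lower in shCDK8 than in shControl cells in normal growth, with KRT20 at 0.92 ± 0.080 (adjusted p = 0.000157), KRT18 at 0.84 ± 0.060 (6.64e-05) and EPCAM at -1.31 ± 0.045 (1.45e-06), and 3 were higher and 2 lower in hypoxia, with EPCAM at -1.13 ± 0.090 (0.00848). Over all genes 24.9% were called in normal growth and 7.3% in hypoxia. In low glucose 2 of the 9 were higher and 1 lower in shCDK8 cells, with differences of -0.18 to 0.45 (22.3% of all genes called). In 5FU 1 was lower and none higher (3.5%). In shCDK19 cells 3 were higher and none lower in normal growth (7.07%) and in low glucose (19.9%), and none passed in 5FU or hypoxia. TNFSF18 and TNFSF4 were higher in shCDK8 than in shControl cells in all 4 conditions. The part of the marker changes in that was not tested. A test passed when limma's Benjamini-Hochberg adjusted p over all genes was below 0.05, and differences are given with their standard error (SE).

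The sequences just upstream of 4 of the start sites are shown because the neighbours TNFSF18, TNFSF4 and FASLG behaved differently from one another, and TNFSF9 serves as the family member detected well above the floor in every group. They are 250 bases before the gene start in RefSeq on GRCh38.p14, 5′ to 3′ on the gene's strand, in the window chr1:173050942-173051191 on the minus strand for TNFSF18, chr1:173205533-173205782 on the minus strand for TNFSF4, chr1:172658853-172659102 on the plus strand for FASLG and chr19:6530776-6531025 on the plus strand for TNFSF9. RefSeq's gene record of TNFSF4 reaches further upstream than the start used for its window. Capitals mark a match to a motif searched on both strands.
TNFSF18: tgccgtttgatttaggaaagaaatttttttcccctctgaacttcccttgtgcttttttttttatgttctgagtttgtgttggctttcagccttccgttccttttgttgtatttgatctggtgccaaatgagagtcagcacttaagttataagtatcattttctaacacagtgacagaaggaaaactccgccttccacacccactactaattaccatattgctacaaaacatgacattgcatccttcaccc
TNFSF4: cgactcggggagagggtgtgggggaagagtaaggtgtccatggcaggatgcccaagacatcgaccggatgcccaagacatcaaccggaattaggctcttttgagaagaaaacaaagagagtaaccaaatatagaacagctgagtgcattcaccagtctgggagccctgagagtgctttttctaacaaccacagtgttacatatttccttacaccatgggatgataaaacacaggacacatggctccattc
FASLG: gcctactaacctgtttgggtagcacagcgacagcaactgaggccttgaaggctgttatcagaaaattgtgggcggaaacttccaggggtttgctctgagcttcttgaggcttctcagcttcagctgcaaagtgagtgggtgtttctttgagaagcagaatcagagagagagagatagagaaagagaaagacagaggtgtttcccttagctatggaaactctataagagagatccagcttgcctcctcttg
TNFSF9: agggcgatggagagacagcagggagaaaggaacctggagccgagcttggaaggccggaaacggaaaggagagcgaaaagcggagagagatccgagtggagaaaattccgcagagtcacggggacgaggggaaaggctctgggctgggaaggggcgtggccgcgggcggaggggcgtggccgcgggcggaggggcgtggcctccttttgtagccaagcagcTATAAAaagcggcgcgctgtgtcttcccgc

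The motifs searched were the TATA box (TATAAA, present in 10.7% of 35116 RefSeq windows of this length), the AP-1 site (TGANTCA, 6.57%), a TCF/LEF site (CTTTGAT, 2.26%), an E-box (CACGTG, 6.34%), the core of a hypoxia response element (ACGTG, 18.5%, which overlaps the E-box) and the NF-kB site (9.96%). None of these letters occurred in the windows of TNFSF18, TNFSF4 and FASLG. TNFSF9 held TATAAA 30 to 25 bases before its start. Of the members whose windows are not printed, TNFSF10 held TATAAA 31 to 26 bases and TNFSF15 held TGAGTCA 120 to 114 bases before the start. The window of TNFSF18 had 38.8% G and C with 3 CpG, that of TNFSF4 48.0% with 5, that of FASLG 47.6% with 2 and that of TNFSF9 64.4% with 23, against medians of 58.0% and 11 over all windows. The windows thus share no searched motif among the 3 chromosome neighbours, and of the 4 printed only TNFSF9's holds more CpG than the median.

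TNFSF18 was the ligand whose level varied most. In shCDK8 cells it read 10.65, 11.04 and 11.01 in normal growth, 6.26 and 6.45 in 5FU, 8.62, 8.80 and 8.46 in low glucose and 10.61 and 10.55 in hypoxia. In shCDK19 cells it read 5.87, 5.75 and 5.47 in normal growth, 5.77 and 6.0 in 5FU, 7.14, 7.22 and 6.82 in low glucose and 5.05 and 4.83 in hypoxia. In shControl cells it read 4.63, 4.83 and 4.97 in normal growth, 4.52 and 4.55 in 5FU, 4.89, 4.77 and 4.94 in low glucose, 4.63 and 4.56 in hypoxia, 4.49 and 4.50 in DMSO and 4.67, 4.86 and 4.70 in high glucose. In each of the 4 conditions every shCDK8 array lay above every shCDK19 array, and every shCDK19 array above every shControl array. This order is a description, since the level in shCDK8 cells was part of what chose the gene. The share of all genes that separate in this way was not counted. Groups in 5FU and hypoxia had 2 arrays each, so full separation there says little. In hypoxia the limma test of shCDK19 against shControl cells was not passed (0.35 ± 0.10, adjusted p = 0.29). All 15 shControl arrays stayed within 4.49 to 4.97, just over the floor.

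**Figure D1:**
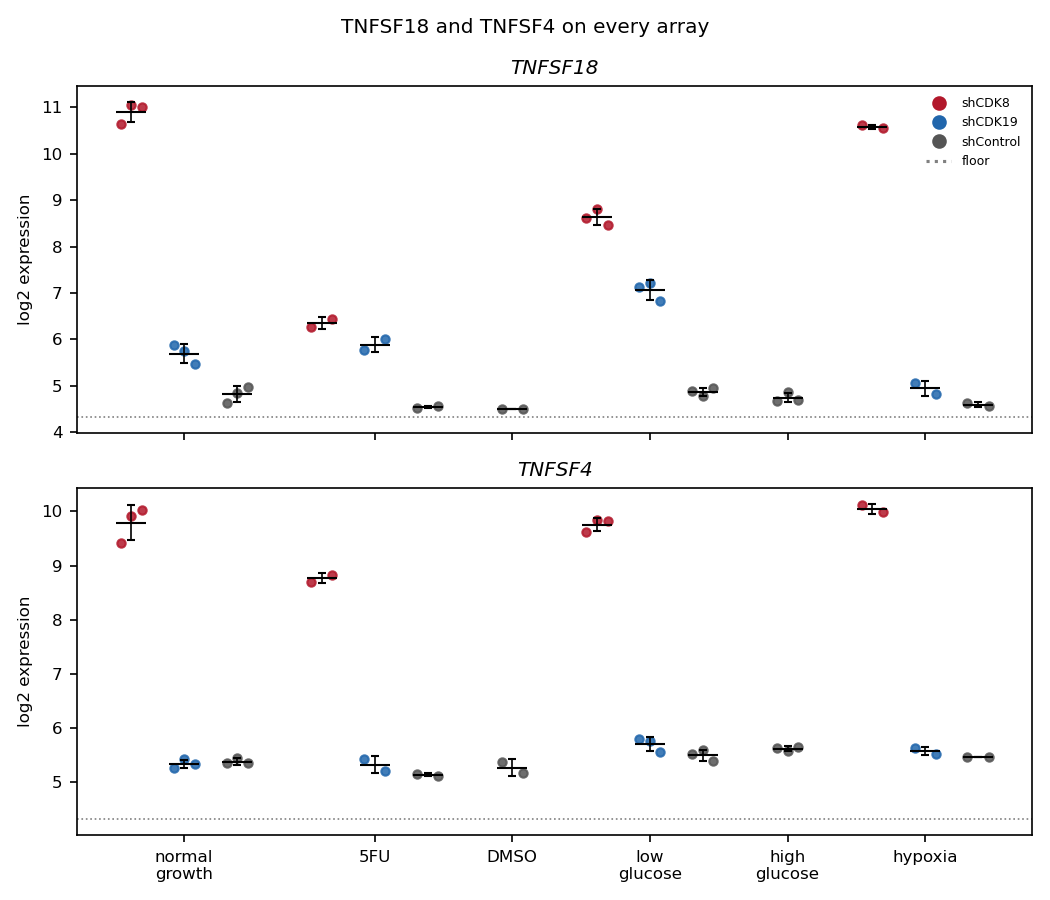
Deposited log2 expression of TNFSF18 (top) and TNFSF4 (bottom) on each of the 35 arrays (points) by condition, with the lines shCDK8, shCDK19 and shControl from left to right, the group mean (horizontal bar), its SD (error bar) and the floor of the values (dotted). TNFSF18 in shCDK8 cells runs between 6.26 and 11.04 and lies lowest in 5FU, while TNFSF4 in the same cells stays between 8.70 and 10.11.

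The group means of TNFSF18 fall in the order shCDK8 in normal growth (10.90 ± 0.22, SD, n = 3), shCDK8 in hypoxia (10.58 ± 0.047, n = 2), shCDK8 in low glucose (8.63 ± 0.17, n = 3), shCDK19 in low glucose (7.06 ± 0.21, n = 3), shCDK8 in 5FU (6.35 ± 0.13, n = 2), shCDK19 in 5FU (5.89 ± 0.16, n = 2), shCDK19 in normal growth (5.69 ± 0.21, n = 3) and shCDK19 in hypoxia (4.94 ± 0.16, n = 2). The 6 shControl groups follow at 4.50 to 4.87. The ranges of the shCDK19 groups in 5FU and normal growth overlap, and so do those of hypoxic shCDK19 cells and shControl cells in low glucose. The distance between the highest and the lowest group mean was 6.41, and 0 of 18404 genes had a wider one. That distance was part of what chose the gene and is a description.

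The shCDK8 minus shControl difference of TNFSF18, also a description, was 6.09 ± 0.15 (SE) in normal growth, 1.82 ± 0.098 in 5FU, 3.76 ± 0.11 in low glucose and 5.99 ± 0.10 in hypoxia, or 68.0-fold, 3.53-fold, 13.5-fold and 63.5-fold. In normal growth and in hypoxia it was the largest of 18404 genes, in low glucose the 5th and in 5FU the 15th. For scale, 24.9% of all genes passed the test between these lines in normal growth, 3.5% in 5FU, 22.3% in low glucose and 7.3% in hypoxia, and nothing is read from that for the members. Against shCDK19 cells the TNFSF18 difference was 5.21 ± 0.15 in normal growth and 5.64 ± 0.10 in hypoxia, but 1.57 ± 0.11 in low glucose and 0.47 ± 0.098 in 5FU. The 2 knockdown lines were thus closest in the 5FU experiment.

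TNFSF4 was high in shCDK8 cells alone. Those cells read 9.43, 9.92 and 10.02 in normal growth, 8.70 and 8.84 in 5FU, 9.62, 9.84 and 9.82 in low glucose and 10.11 and 9.98 in hypoxia. shCDK19 cells read 5.27, 5.42 and 5.34 in normal growth, 5.44 and 5.22 in 5FU, 5.80, 5.77 and 5.56 in low glucose and 5.64 and 5.53 in hypoxia. shControl cells read 5.35, 5.46 and 5.35 in normal growth, 5.16 and 5.12 in 5FU, 5.53, 5.59 and 5.39 in low glucose, 5.47 and 5.47 in hypoxia, 5.38 and 5.17 in DMSO and 5.64, 5.58 and 5.66 in high glucose. The 10 shCDK8 arrays at 8.70 to 10.11 were separated from the other 25 arrays at 5.12 to 5.80 by a wide gap. Among the shCDK8 groups the order was hypoxia, normal growth and low glucose, with overlapping ranges, and then 5FU.

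The shCDK8 minus shControl difference of TNFSF4 was 4.40 ± 0.14 in normal growth, 3.63 ± 0.11 in 5FU, 4.25 ± 0.082 in low glucose and 4.58 ± 0.089 in hypoxia, or 21.2-fold, 12.4-fold, 19.1-fold and 23.9-fold. Within shCDK8 cells the highest and lowest group means of TNFSF4 lay 1.28 apart, against 4.55 for TNFSF18. The genes thus shared the line in which they were high and differed in how much their levels varied between conditions, since TNFSF18 was lower in 5FU and in low glucose than in normal growth, and TNFSF4 clearly lower in 5FU only. The 4 conditions were separate experiments, with low glucose in another medium, so condition, medium and experiment cannot be told apart here. Over the 14 group means the Pearson correlation of TNFSF18 and TNFSF4 was 0.89; the groups share lines, and both genes were chosen for their level in the shCDK8 groups. The distance between the highest and lowest of all group means of TNFSF4 was 4.91, and 8 of 18404 genes had a wider one.

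**Figure D2:**
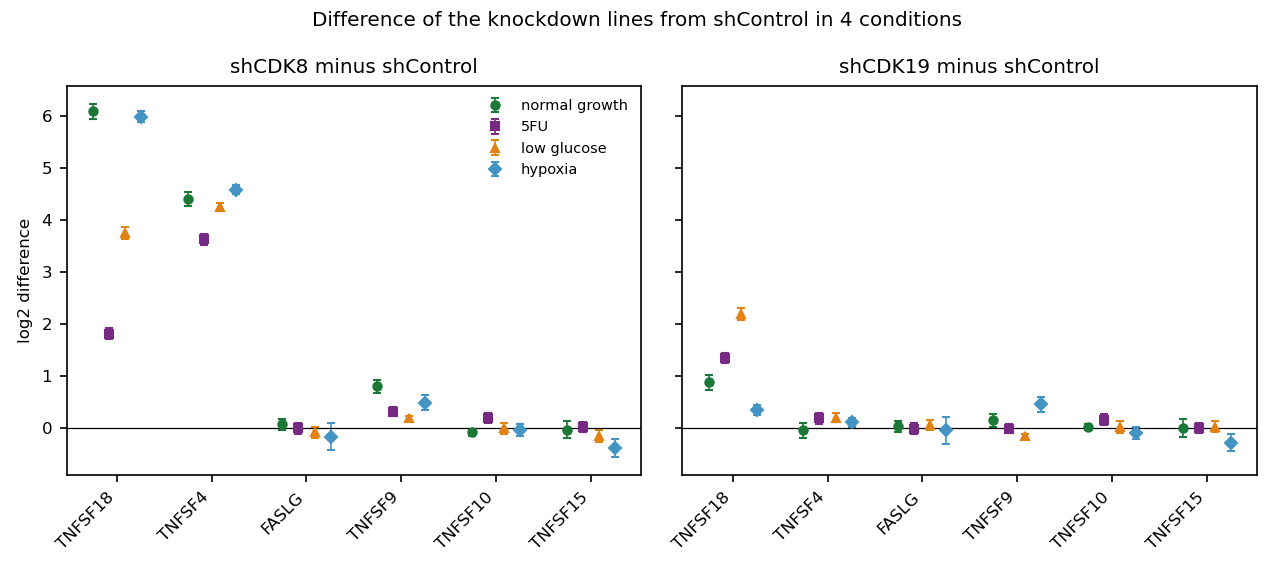
Difference in log2 expression of shCDK8 minus shControl cells (left) and shCDK19 minus shControl cells (right) for the 6 ligands in 4 conditions, with the standard error from limma (error bars). TNFSF18 and TNFSF4 stand out on the left, with TNFSF18 at 1.82 to 6.09 and TNFSF4 at 3.63 to 4.58, and on the right TNFSF18 reaches 2.19 while no other ligand exceeds 0.46.

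The shCDK19 line was not used to choose the ligands and could be tested against shControl cells, which are the same arrays as in the shCDK8 differences. TNFSF18 rose in shCDK19 cells in 3 of 4 conditions. The difference was 0.88 ± 0.15 in normal growth (adjusted p = 0.0117), 1.35 ± 0.098 in 5FU (adjusted p = 0.0131) and 2.19 ± 0.11 in low glucose (adjusted p = 1.26e-06), and 0.35 ± 0.10 in hypoxia (adjusted p = 0.29), where the test was not passed. As folds these are 1.84, 2.55, 4.56 and 1.27. The call in low glucose held in all 13 alternatives (adjusted p between 2.06e-12 and 2.7e-05). That in normal growth was lost without shCDK19 replicate 2 (adjusted p = 0.0517) and without shControl replicate 1 (0.0504), in a range of 1.52e-05 to 0.0517. That in 5FU was lost without any 1 of the 4 arrays, with adjusted p at 0.075 and 0.123 without shCDK19 replicates 1 and 2 and at 0.118 and 0.125 without shControl replicates 1 and 2.

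The rise of TNFSF18 in shCDK19 cells was larger in low glucose than in normal growth, by 1.31 ± 0.17 (adjusted p = 6.24e-05, limma on all 35 arrays), a contrast chosen after seeing the data. This difference of effects was past the threshold in 1.79% of all genes. In 5FU the effect exceeded that in normal growth by 0.47 ± 0.19 (adjusted p = 0.235), and in hypoxia it was smaller by 0.53 ± 0.19 (difference of -0.53, adjusted p = 0.164), so neither difference passed. For these 2 contrasts 4% and 2.08% of all genes passed. Normal growth and low glucose were measured in separate experiments in different media, so low glucose, medium and experiment cannot be told apart here. No shCDK19 array in high glucose was analysed.

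For the other 5 ligands the same tests gave 1 call in 20. Over all genes 7.07% passed between shCDK19 and shControl cells in normal growth, 0.837% in 5FU, 19.9% in low glucose and 0.228% in hypoxia. Of the 6 ligands, 1, 1, 2 and 0 passed in these conditions, and at an unadjusted p below 0.05 there were 1, 1, 3 and 2. The additional call was a decrease of TNFSF9 in low glucose, with 10.46, 10.47 and 10.40 in shCDK19 cells against 10.61, 10.55 and 10.61 in shControl cells. It was small, at -0.15 ± 0.041 (adjusted p = 0.0309), and did not pass in 7 of 13 alternatives (adjusted p between 0.016 and 0.356), among them the omission of shCDK19 replicate 1 (0.0626) or 3 (0.092) and of shControl replicate 1 (0.0947) or 3 (0.0931). TNFSF4 differed by -0.04 ± 0.14, 0.19 ± 0.11, 0.20 ± 0.082 and 0.12 ± 0.089 in normal growth, 5FU, low glucose and hypoxia (adjusted p = 0.987, 0.56, 0.117 and 0.599), and passed in low glucose only without shCDK19 replicate 3 (0.28, adjusted p = 0.0378, range over alternatives 0.0378 to 0.328). In hypoxia TNFSF9 was 0.46 ± 0.14 higher in shCDK19 cells (adjusted p = 0.299), which passed without shControl replicate 2 (0.63, adjusted p = 0.0337) and in a fit of all 35 arrays (0.00742), in a range of 0.00742 to 0.991.

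FASLG, the third of the chromosome neighbours, did not share the pattern of TNFSF18 and TNFSF4. It read 6.28, 5.79 and 5.98 in shCDK8 cells, 5.95, 5.97 and 6.02 in shCDK19 cells and 5.93, 5.93 and 5.98 in shControl cells in normal growth. Over all 35 arrays it lay between 5.79 and 6.58, and the ranges of all groups next to each other in its order overlapped. Its group means spanned 0.28, a distance exceeded by 94.6% of genes. The shCDK8 minus shControl difference was 0.07 ± 0.11 in normal growth, -0.0049 ± 0.10 in 5FU, -0.08 ± 0.10 in low glucose and -0.16 ± 0.26 in hypoxia. The large SE in hypoxia belongs to shControl arrays that read 6.58 and 5.88. FASLG is a lymphocyte gene and its values do not show whether it was expressed here.

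TNFSF9 was detected well above the floor in every group, between 8.99 and 10.80. In normal growth it read 9.87, 10.18 and 10.06 in shCDK8 cells, 9.29, 9.51 and 9.35 in shCDK19 cells and 9.37, 9.34 and 8.99 in shControl cells. Its shCDK8 minus shControl difference was 0.80 ± 0.12 in normal growth, 0.32 ± 0.088 in 5FU, 0.19 ± 0.041 in low glucose and 0.49 ± 0.14 in hypoxia, described without a test. All 4 groups of the glucose experiment (means of 10.44 to 10.78, high glucose included) lay above all groups of the other experiments (9.23 to 10.34). The glucose groups were grown in another medium, and medium and experiment cannot be told apart.

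TNFSF9 rose after 5FU in shControl cells. It read 10.09 and 9.95 after the drug against 9.30 and 9.50 in DMSO, a difference of 0.62 ± 0.088 (1.54-fold, adjusted p = 0.0141) in a comparison in which 11.5% of all genes passed. It was the 1 of 6 ligands that passed, with 1 at an unadjusted p below 0.05. The call was lost without 5FU replicate 1 (adjusted p = 0.092) or 2 (0.0603), in a range of 0.000286 to 0.092. TNFSF18 read 4.52 and 4.55 in 5FU against 4.49 and 4.50 in DMSO (adjusted p = 0.858), and the 4 remaining ligands differed by -0.14 to 0.04.

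TNFSF10 differed in the glucose comparison. shControl cells read 4.70, 4.85 and 5.01 in low glucose against 5.49, 5.81 and 5.87 in high glucose, a fall by 0.87 ± 0.11 on the log2 scale (1.83-fold, adjusted p = 0.000196), in a comparison in which 31.2% of all genes passed. The call held in all 13 alternatives (adjusted p between 1.46e-07 and 0.00136). High glucose was also the only group apart from the rest for this gene, since the other 32 arrays, from all lines, lay between 4.70 and 5.18, close to the floor. TNFSF9 read 10.61, 10.55 and 10.61 in low glucose against 10.71, 10.70 and 10.61 in high glucose (-0.09 ± 0.041, adjusted p = 0.153), and the remaining 4 ligands differed by -0.12 to 0.13 with no call.

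**Figure D3:**
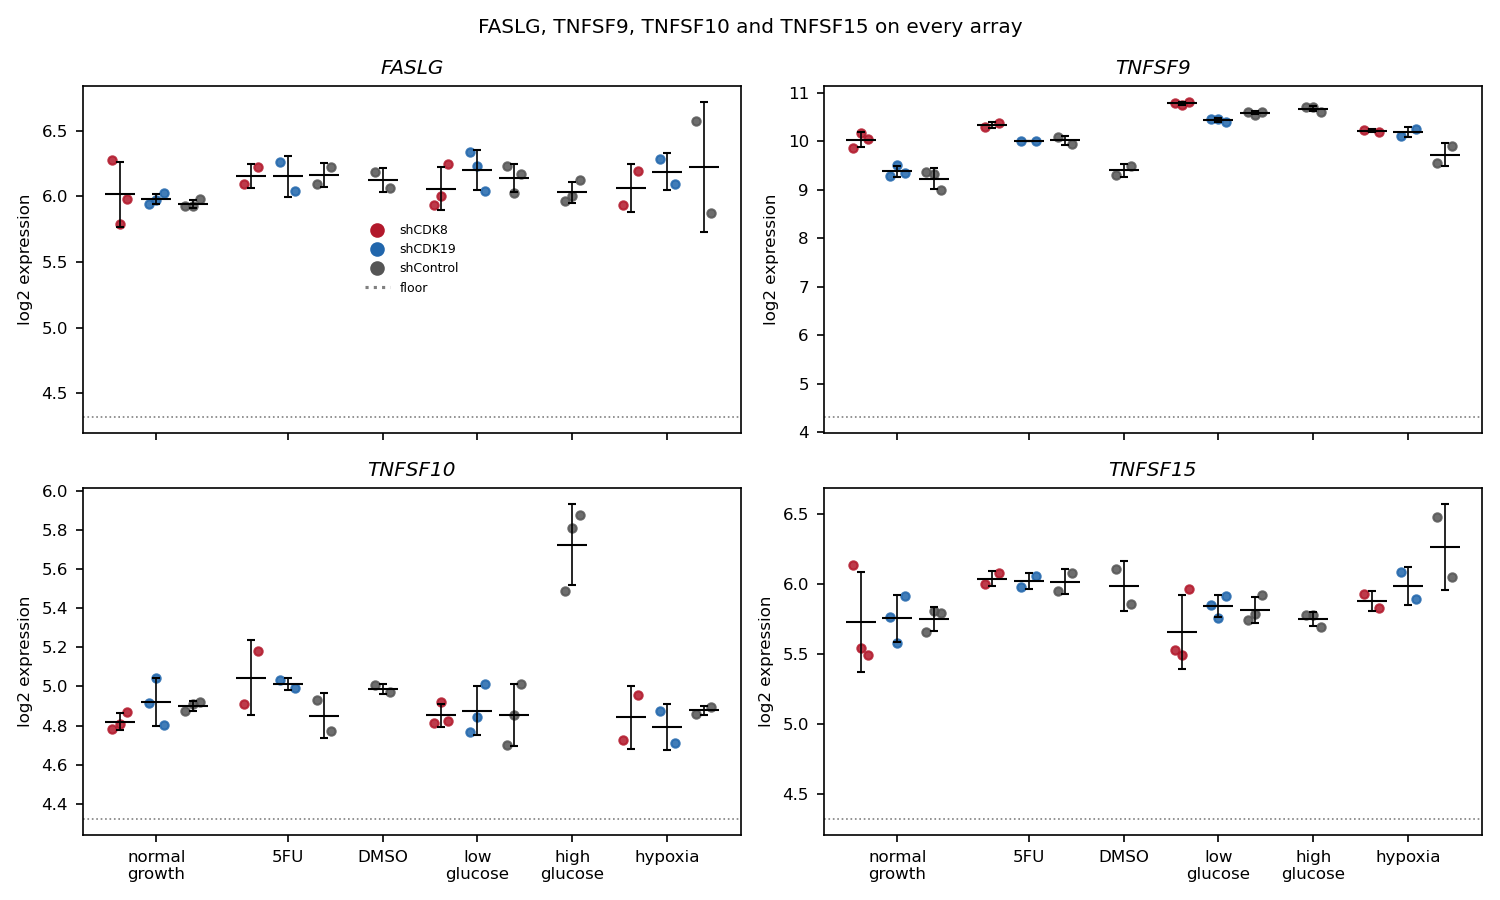
Deposited log2 expression of FASLG, TNFSF9, TNFSF10 and TNFSF15 on each of the 35 arrays (points) by condition, with the lines shCDK8, shCDK19 and shControl from left to right, the group mean (horizontal bar), its SD (error bar) and the floor (dotted). The vertical scales differ. TNFSF10 stands out in high glucose at 5.49 to 5.87, and FASLG stays between 5.79 and 6.58.

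Hypoxic and untreated cells of a line were measured in separate experiments, so oxygen and experiment cannot be told apart in the comparisons of the next values. TNFSF9 rose in hypoxic shControl cells, with 9.56 and 9.90 in hypoxia against 9.37, 9.34 and 8.99 in normal growth (0.50 ± 0.10, adjusted p = 0.000498). It rose in hypoxic shCDK19 cells as well, with 10.11 and 10.27 against 9.29, 9.51 and 9.35 (0.81 ± 0.10, adjusted p = 1.04e-06). In shCDK8 cells it read 10.24 and 10.20 in hypoxia against 9.87, 10.18 and 10.06 in normal growth (0.19 ± 0.10, adjusted p = 0.35), which did not pass. Over all genes 47.8% passed in shControl, 31.3% in shCDK19 and 9.1% in shCDK8 cells, and of the ligands 2, 2 and 0, with 2 each at an unadjusted p below 0.05. Whether the shCDK8 response of TNFSF9 differed from the others was not tested.

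TNFSF18 fell in hypoxic shCDK19 cells, with 5.05 and 4.83 in hypoxia against 5.87, 5.75 and 5.47 in normal growth (-0.75 ± 0.14, adjusted p = 9.24e-05). In shCDK8 cells it differed by -0.32 ± 0.14 (adjusted p = 0.166), which did not pass. Without shCDK8 normal growth replicate 1 it passed (-0.45, adjusted p = 0.0328). The gene had been chosen for its level on shCDK8 arrays, so nothing is read from this test. In shControl cells TNFSF18 differed by -0.22 ± 0.14 (adjusted p = 0.173) near the floor. TNFSF15 was 0.51 ± 0.16 higher in hypoxic shControl cells (adjusted p = 0.0104), with 6.48 and 6.05 against 5.66, 5.81 and 5.79, and this was lost without hypoxia replicate 1 (0.30, adjusted p = 0.297, range 0.00223 to 0.297). FASLG passed there only without hypoxia replicate 2 (0.63, adjusted p = 0.0013, range 0.0013 to 0.844). The pair of hypoxic shControl arrays is the one that correlated least.

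TNFSF15 otherwise stayed between 5.49 and 6.48 on all arrays, and its groups overlapped with their neighbours in order. Its shCDK8 minus shControl difference was -0.03 ± 0.17 in normal growth, 0.02 ± 0.099 in 5FU, -0.16 ± 0.11 in low glucose and -0.39 ± 0.17 in hypoxia. That of TNFSF10 was -0.08 ± 0.062, 0.19 ± 0.10, -0.0027 ± 0.11 and -0.04 ± 0.12 in the same conditions. Of the 6 ligands, only TNFSF18 and TNFSF4 showed the large shCDK8 difference. That pair was known for it when the ligands were chosen, so their number is not a result.

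The stretch of chromosome 1 that holds FASLG, TNFSF18 and TNFSF4 was described through the 5 nearest measured genes on either side in the RefSeq order of GRCh38.p14. In order these are METTL13, DNM3, C1orf105, PIGC and SUCO before FASLG, and PRDX6, SLC9C2, ANKRD45, KLHL20 and CENPL after TNFSF4. In normal growth 4 of the 10 were higher in shCDK8 than in shControl cells and none lower, against 24.9% of all genes called in either direction. PRDX6, an antioxidant enzyme that also holds phospholipase activity, rose by 0.63 ± 0.068 (adjusted p = 0.000448), ANKRD45 by 0.47 ± 0.090 (0.00713), DNM3, a dynamin, by 0.46 ± 0.11 (0.0189) and METTL13, a methyltransferase, by 0.27 ± 0.072 (0.031). Their median difference was 0.18, against -0.02 over all genes. The count was 2 without shCDK8 replicate 2 or 3 and without shControl replicate 2 or 3. None of the 10 differed by more than 0.63, beside 6.09 for TNFSF18, 4.40 for TNFSF4 and 0.07 for FASLG.

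**Figure D4:**
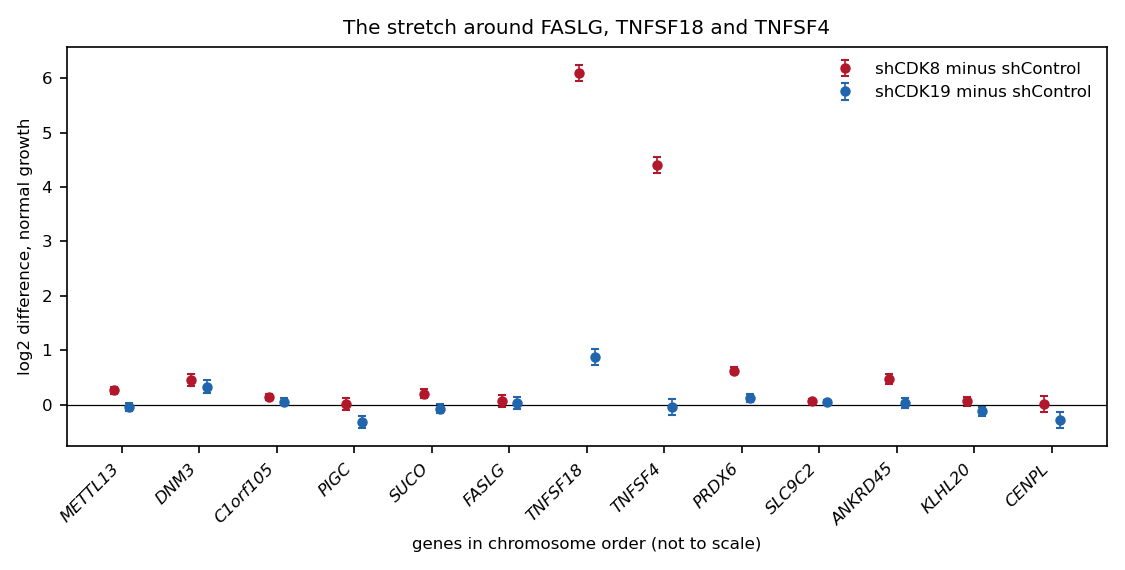
Difference in log2 expression in normal growth, shCDK8 minus shControl and shCDK19 minus shControl, for 13 genes in their order along chromosome 1, with the standard error from limma (error bars). TNFSF18 (6.09) and TNFSF4 (4.40) stand far above their neighbours, of which PRDX6 (0.63) is highest in shCDK8 cells.

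PRDX6 was also higher in shCDK8 cells in low glucose (0.42 ± 0.071, adjusted p = 0.00185), with ANKRD45 (0.68 ± 0.17, 0.0148) and METTL13 (0.35 ± 0.068, 0.00433), so that 3 of 10 rose, against 22.3% of all genes called. In hypoxia, with 7.3% of all genes called, PRDX6 was the 1 of 10 that rose (1.01 ± 0.11, adjusted p = 0.0157). That count was 0 without either shCDK8 array and with an ordinary analysis of variance, and 6 without shControl replicate 2 and in one fit of all 35 arrays. In 5FU the count was 0, with 2 at an unadjusted p below 0.05. In shCDK19 cells the counts were 0 in normal growth, 5FU and hypoxia (2, 0 and 1 at an unadjusted p below 0.05) and 2 higher with 1 lower in low glucose (19.9% of all genes called), where PRDX6 (0.35 ± 0.071, adjusted p = 0.00638) and DNM3 (0.45 ± 0.085, 0.00429) rose and PIGC (-0.53 ± 0.097, 0.00373) fell. TNFSF18 changed there by 2.19.

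The receptors of the 6 ligands were measured in the same cells, 9 of 11 on a row of their own. TNFRSF6B and TNFRSF10C share their rows with other symbols and were not analysed here. TNFRSF18, the receptor of TNFSF18, read 8.97 to 9.31 in shCDK8 cells against 9.38 to 9.45 in shControl cells in normal growth and fell by 0.28 ± 0.083 (adjusted p = 0.0419). TNFRSF4, the receptor of TNFSF4, averaged 8.02 ± 0.35 in shCDK8, 8.03 ± 0.23 in shCDK19 and 8.03 ± 0.094 in shControl cells (SD, n = 3 each), and passed in none of the 8 comparisons of a knockdown line with shControl cells. Neither of these receptors passed as higher in shCDK8 cells in any of the 4 conditions.

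In normal growth 5 of the 9 receptors were higher and 1 lower in shCDK8 cells, with a median difference of 0.22 against -0.02 over all genes, of which 24.9% were called. FAS, the death receptor of FASLG, rose by 0.80 ± 0.16 (adjusted p = 0.0085) and TNFRSF9, the receptor of TNFSF9, by 0.59 ± 0.096 (0.00336). Of the TRAIL receptors, TNFRSF10D, a decoy, rose by 0.36 ± 0.058 (0.00349), and the death receptors TNFRSF10A by 0.31 ± 0.050 (0.00342) and TNFRSF10B by 0.22 ± 0.043 (0.00753). In shCDK19 cells these 3 TRAIL receptors fell, TNFRSF10B by 0.48 ± 0.043 (0.000687), TNFRSF10D by 0.34 ± 0.058 (0.013) and TNFRSF10A by 0.29 ± 0.050 (0.0132), in a comparison in which 7.07% of all genes were called. Without shControl replicate 3 the count of 3 was 1. In low glucose, with 19.9% of all genes called, these receptors fell again in shCDK19 cells (TNFRSF10B by 0.51 ± 0.041, adjusted p = 2.07e-05), where the count of 3 was 5 without shCDK19 replicate 2. TNFRSF11B, also a TRAIL receptor, did not pass. It averaged 4.64 ± 0.15 in shCDK19 against 4.62 ± 0.058 in shControl cells in normal growth (SD, n = 3 each), near the floor. The TRAIL gene itself, TNFSF10, differed by 0.02 ± 0.062 in shCDK19 cells in normal growth (adjusted p = 0.982).

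**Figure D5:**
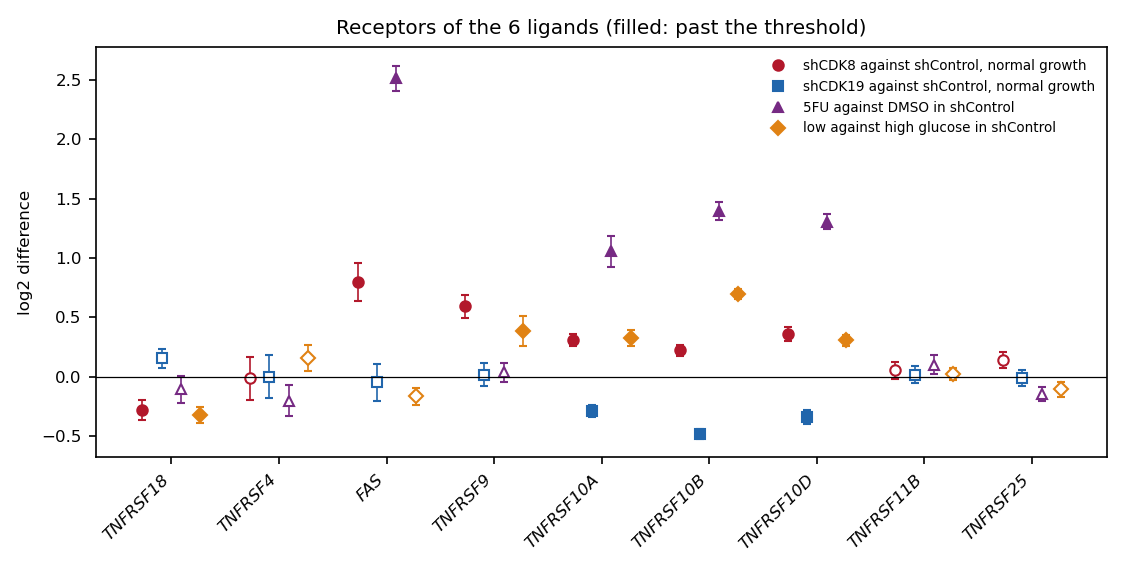
Difference in log2 expression of the 9 measured receptors of the 6 ligands in 4 comparisons, with the standard error from limma (error bars); filled symbols passed the test. The knockdown lines are shown in normal growth only. FAS after 5FU (2.51) is the largest. The TRAIL receptors TNFRSF10A, TNFRSF10B and TNFRSF10D are higher in shCDK8 and lower in shCDK19 cells in normal growth. TNFRSF4 and TNFRSF11B passed in none of the 4.

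In low glucose shCDK8 cells had 3 receptors higher and 1 lower, namely TNFRSF10A (0.31 ± 0.066, adjusted p = 0.00686), TNFRSF25, the receptor of TNFSF15 (0.27 ± 0.063, 0.0103), FAS (0.24 ± 0.071, 0.0363) and, lower, TNFRSF10B (-0.13 ± 0.041, 0.0444). Over all genes 22.3% were called. This count of 4 was 2 without shCDK8 replicate 1 or shControl replicate 1, with array medians subtracted and in one fit of all 35 arrays. In hypoxia FAS alone rose in shCDK8 cells, at 9.08 and 8.99 on their arrays against 7.27 and 7.82 on shControl arrays (1.49 ± 0.20, adjusted p = 0.024). Over all genes 7.3% were called. That count of 1 was 0 without either shCDK8 array and with an ordinary analysis of variance, 5 without shControl replicate 2, 4 in one fit of all 35 arrays and 2 with a trend in the moderation. No receptor passed in 5FU in shCDK8 cells (3 at an unadjusted p below 0.05) or in shCDK19 cells (2), nor in hypoxia in shCDK19 cells (0), where 1 passed without shControl replicate 2.

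After 5FU FAS and the TRAIL receptors TNFRSF10A, TNFRSF10B and TNFRSF10D rose in shControl cells, while TNFRSF11B and the ligands FASLG and TNFSF10 did not pass the test. FAS rose by 2.51 ± 0.11 (5.70-fold, adjusted p = 0.00151), TNFRSF10B by 1.39 ± 0.074 (0.00166), TNFRSF10D by 1.31 ± 0.063 (0.00151) and TNFRSF10A by 1.05 ± 0.13 (0.0102), so that 4 of 9 rose and none fell, with a median of 0.10 against -0.02 over all genes, of which 11.5% were called. In low against high glucose 4 rose and 1 fell (median of 0.15, against 0.02 over all genes, of which 31.2% were called), with TNFRSF10B up by 0.70 ± 0.041 (1.31e-06), TNFRSF9 by 0.39 ± 0.13 (0.0403), TNFRSF10A by 0.33 ± 0.066 (0.00341) and TNFRSF10D by 0.31 ± 0.048 (0.000782), and TNFRSF18 down (-0.32 ± 0.069, 0.00482). In low glucose TNFRSF10B was thus higher in the cells in which its ligand TNFSF10 was lower.

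The other ligands of the family gave 1 call in the knockdown lines, in shCDK8 cells in normal growth, where 24.9% of all genes were called. Of 9 measured (CD40LG, TNFSF12 and TNFSF13 were not analysed here), TNFSF13B, the B cell factor BAFF, rose in normal growth (0.44 ± 0.11, adjusted p = 0.0229), at 6.23 ± 0.028 in shCDK8 cells against 5.79 ± 0.080 in shControl cells (SD, n = 3 each), and the count was 0 without shCDK8 replicate 2 or 3 or shControl replicate 1 or 2. In the other 7 comparisons of a knockdown line with shControl cells, in which 0.228% to 22.3% of all genes were called, the count was 0, with at most 1 at an unadjusted p below 0.05. It became 4 in both lines in hypoxia without shControl replicate 2, and 1 in low glucose without shCDK8 replicate 3 or, for the shCDK19 comparison, without shControl replicate 1.

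Of 18 other receptors of the family, 7 rose and 2 fell in shCDK8 cells in normal growth, with a median difference of 0.07 against -0.02 over all genes, of which 24.9% were called. EDA2R, a receptor of ectodysplasin A2, rose by 0.73 ± 0.072 (adjusted p = 0.000297) and EDAR by 0.67 ± 0.088 (0.00122), and NGFR, the low-affinity neurotrophin receptor, fell by 0.46 ± 0.043 (0.000233). In low glucose (22.3% of all genes called) 4 rose and 2 fell, with EDA2R up by 2.93 ± 0.14 (2.88e-07), at 8.63 to 9.15 against 5.77 to 6.06 in shControl cells, and TNFRSF21 (death receptor 6) up by 1.10 ± 0.048 (1.7e-07); the count of 6 was 3 without shCDK8 replicate 3. In 5FU (3.5%) 3 rose, EDA2R by 1.33 ± 0.096 (0.00362), TNFRSF21 by 0.77 ± 0.065 (0.00555) and RELT by 0.46 ± 0.070 (0.0302), a count that was 1 without either shCDK8 array or without shControl replicate 2. In hypoxia (7.3%) LTBR, the lymphotoxin beta receptor, rose by 0.91 ± 0.083 (0.0109), a count of 1 that was 0 without either shCDK8 array and 3 and 8 without shControl replicates 1 and 2. In shCDK19 cells TNFRSF21 rose in normal growth (0.79 ± 0.045, 8.7e-05) and in low glucose (0.57 ± 0.048, 3.09e-05), among 2 and 5 calls, with 7.07% and 19.9% of all genes called. The first of these counts was 1 without any 1 of the 6 arrays. In 5FU 1 of the 18 was higher in shCDK19 cells and none lower (0.837% of all genes called). That count was 0 with an ordinary analysis of variance. In hypoxia none passed in shCDK19 cells (0.228%), and 1 passed with array medians subtracted.

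Among 17 genes of NF-kB signalling, 3 rose and 2 fell in shCDK8 cells in normal growth, a count of 5 that was 9 without shCDK8 replicate 1; the median difference was 0.11. NFKBIA rose by 0.97 ± 0.057 (adjusted p = 2.28e-05) and TNFAIP3 by 0.69 ± 0.096 (0.0016), both feedback inhibitors of the pathway, while the subunit gene REL fell by 0.55 ± 0.074 (0.00136). In the other conditions all calls in shCDK8 cells were higher. There were 4 in low glucose, led by TRAF5 (0.42 ± 0.090, 0.00714) and TNFAIP3 (0.38 ± 0.064, 0.00165), 3 in hypoxia, led by NFKBIA (0.91 ± 0.093, 0.0145) and IKBKB (0.81 ± 0.10, 0.0208), and 1 in 5FU, TNFAIP3 (0.68 ± 0.12, 0.0414). The hypoxia count was 0 without either shCDK8 array and with an ordinary analysis of variance, and 11 without shControl replicate 2; the 5FU count was 0 without shCDK8 replicate 2 or either shControl array. In shCDK19 cells in normal growth NFKBIA fell by 0.36 ± 0.057 (0.00909) and REL rose by 0.49 ± 0.074 (0.00763), among 2 higher and 1 lower. In low glucose 4 were lower and none higher in shCDK19 cells, and none passed in 5FU or hypoxia. Of 10 measured genes of death receptor signalling, none rose and CASP10, an initiator caspase, fell by 0.33 ± 0.092 (0.034) in shCDK8 cells in normal growth; the count of 1 was 6 without shCDK8 replicate 1, 0 without any other 1 of the 6 arrays and with an ordinary analysis of variance, 3 in one fit of all 35 arrays and 2 without genes at the floor. In shCDK19 cells in normal growth it was 0, with 1 at an unadjusted p below 0.05. In hypoxia 2 of the 10 rose in shCDK8 cells (median of 0.34). With an ordinary analysis of variance or a replicate block 0 passed, and in one fit of all 35 arrays 6 passed. In low glucose 1 rose and 1 fell in shCDK8 cells, and 1 rose and 2 fell in shCDK19 cells. This last count of 3 was 1 without shCDK19 replicate 3 and without shControl replicate 2 or 3. None passed in the remaining comparisons with shControl cells. Over all genes 24.9% were called in shCDK8 and 7.07% in shCDK19 cells in normal growth. The shares were 22.3% and 19.9% in low glucose, 7.3% and 0.228% in hypoxia and 3.5% and 0.837% in 5FU.

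Markers of the cells in which TNFSF18 and TNFSF4 are best known lay in overlapping ranges in the 3 lines when averaged. The mean level of 11 leukocyte markers ran from 6.13 to 6.52 on shCDK8 arrays, 6.16 to 6.51 on shCDK19 arrays and 6.17 to 6.72 on shControl arrays. PTPRC, which encodes the pan-leukocyte protein CD45, lay between 4.32 and 4.62 on all arrays, with 13 of 35 at the floor; its highest value was 4.62 on shCDK8 arrays and 4.50 on the others. Of the 11 leukocyte markers CD83 alone passed against shControl cells, higher in shCDK8 cells in normal growth (0.36 ± 0.056, adjusted p = 0.00274) and low glucose (0.17 ± 0.046, 0.0211) and in shCDK19 cells in low glucose (0.24 ± 0.046, 0.00439). The mean level of 11 endothelial markers ran from 6.02 to 6.29 on shCDK8 arrays, 6.04 to 6.28 on shCDK19 arrays and 6.0 to 6.56 on shControl arrays. None of these passed as higher in either knockdown line. PECAM1 fell in low glucose in shCDK8 cells (-0.41 ± 0.11, adjusted p = 0.0221), and PECAM1 (-0.36 ± 0.11, 0.0438) and ESAM (-0.30 ± 0.093, 0.0445) in shCDK19 cells, in which ESAM also fell in normal growth (-0.62 ± 0.095, 0.00818). Over all genes 24.9% were called in normal growth and 22.3% in low glucose in shCDK8 cells, and 7.07% and 19.9% in shCDK19 cells. In 5FU and hypoxia the shares were 3.5% and 7.3% in shCDK8 cells and 0.837% and 0.228% in shCDK19 cells. The part of the leukocyte and endothelial markers in the levels of TNFSF18 and TNFSF4 was not tested. In cells of 1 line, fewer expressing cells and less RNA per cell cannot be told apart.

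The genes whose 14 group means followed TNFSF18 most closely, among 6308 genes spanning at least 1 on the log2 scale, were ATOX1, a copper chaperone (Pearson r = 0.965), MSH4, a meiotic MutS homologue (0.95), SPARC, a matrix protein (0.945), ACTBL2 (0.941) and SH3TC2 (0.937). For TNFSF4 they were TM4SF18 (0.97), SLCO3A1, an organic anion transporter (0.968), NRP2, a semaphorin and VEGF co-receptor (0.959), SEMA3A, a secreted semaphorin (0.958), and AOAH (0.953). No gene was on both lists, and neither ligand was among the 5 nearest to the other. These are descriptions over groups that share a line, with no test.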

How the data were processed

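Total RNA from HCT116 cells was hybridised to Affymetrix HuGene 1.0 ST arrays, per the labels. The authors deposited log2 values made with Partek, per the submitters' processing notes; for background correction, normalization and genome build the sources used here give nothing. The values share a floor and a ceiling across arrays, so differences are relative to the other genes. Of 32321 rows, 19158 carry 1 gene symbol, 1388 several and 11775 none in the supplied platform annotation. For the 637 genes with over 1 row, the row with the highest mean over the 35 arrays was kept, which left 18404 genes. Arrays were grouped by their titles.

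Groups were compared with lmFit and eBayes of limma 3.58.1 (R 4.3.3), two-sided, within each experiment. Hypoxia against normal growth, and the differences between shCDK19 effects, came from 1 fit to the 35 arrays together. The Benjamini-Hochberg adjustment ran over all 18404 genes, with a threshold of 0.05. The procedure was also run on simulated data with independent noise, which hold no effects shared within an array. The members and the gene lists were chosen with earlier results of these data known. The shCDK8 minus shControl differences of the ligands therefore carry no test. Named in the text were the ligands and their receptors, the up to 4 most changed genes past the threshold in each other list, the 5 nearest measured genes on each side on chromosome 1, and the 5 genes most like TNFSF18 and TNFSF4. Alternatives were array medians subtracted, genes at the floor left out, an ordinary analysis of variance, a trend in the moderation, every row on its own, a replicate block, other sets of arrays in the fit, and each replicate left out. Promoter windows came from RefSeq. The 5FU concentration in the labels has a doubtful unit and is not used here.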

Additional observations from a re-analysis of the deposited data

Results flagged for a closer look

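The TNFSF18 difference between the shCDK19 and shControl lines was larger in low glucose than in normal growth. The shCDK19 minus shControl difference was 2.19 ± 0.11 (SE) in low glucose and 0.88 ± 0.15 in normal growth, which differ by 1.31 ± 0.17 on the log2 scale (adjusted p = 6.24e-05, limma on all 35 arrays). TNFSF18 averaged 7.06 ± 0.21 in shCDK19 cells in low glucose and 5.69 ± 0.21 in normal growth (SD, n = 3 each). In shControl cells it averaged 4.87 ± 0.088 and 4.81 ± 0.17. The call held in all 19 alternatives, with values between 1.20 and 1.43. The contrast was chosen after seeing the data, it passed in 1.79% of all genes, and no shCDK19 array in high glucose was analysed here. Normal growth and low glucose were separate experiments in different media, so low glucose, medium and experiment cannot be told apart. With 1 shCDK19 line, losing the kinase and other properties of the line cannot be told apart either. No group was large enough for a search for single arrays that stand apart in a ligand's level.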

How the results depend on the processing

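Limits first. Groups of 2 arrays (5FU, DMSO, hypoxia) gave counts that depended on single arrays, the hypoxic shControl pair most of all. TNFSF18 in shControl cells and TNFSF10 in nearly all groups lie near the floor, which shortens their differences. No called difference of a ligand changed sign in any alternative. Many of the 202 results followed are counts of genes, which have no sign and could not change it. The shCDK8 minus shControl difference of TNFSF18 in hypoxia was 6.04 with array medians subtracted. The labels do not say what the replicate numbers shared between groups mark, and the arrays were treated as unpaired. In the 5 comparisons with 3 pairs the correlation of same-numbered arrays' deviations ran from -0.17 to 0.14. There 0 to 4 of 6 arrays correlated best with their own number. In the comparisons with 2 pairs the correlation ran from -0.496 to 0.41. These values do not settle whether the arrays were paired. With a replicate block, genes past the threshold numbered 355 (645 without) for shCDK8 in 5FU, 312 (1343) for shCDK8 in hypoxia, 781 (1301) for shCDK19 in normal growth, 53 (154) for shCDK19 in 5FU and 1 (42) for shCDK19 in hypoxia. Among the gene lists, the block left 0 partner receptors (1 otherwise), 0 chromosome neighbours (1) and 0 NF-kB genes (3) for shCDK8 in hypoxia, and 2 chromosome neighbours (4) and 0 death receptor genes (1) for shCDK8 in normal growth. The cause of these and the following changes was not tested.

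With an ordinary analysis of variance the counts were 238 for shCDK8 in 5FU, 334 for shCDK8 in hypoxia, 20 for shCDK19 in 5FU (with 0 ligands, 1 otherwise), 3 for shCDK19 in hypoxia and 849 (2109) for 5FU against DMSO, with 0 ligands (1 otherwise). It left 0 partner receptors, neighbours and NF-kB genes for shCDK8 in hypoxia and 0 death receptor genes in normal growth; that last count was 3 in one fit of all arrays and 2 without genes at the floor. In one fit of all 35 arrays they were 1713, 6392, 1067, 2641 (with 1 ligand, 0 otherwise) and 3526 for the same comparisons, and 1 ligand (2 otherwise) passed for shCDK19 in low glucose. With a trend they were 233 for shCDK19 in 5FU and 109 in hypoxia. With array medians subtracted they were 781 for shCDK19 in normal growth, 122 in hypoxia, 856 (1674) for hypoxia against normal growth in shCDK8 cells, and 354 (736), 146 (329) and 112 (383) for the shCDK19 effect in 5FU, low glucose and hypoxia minus that in normal growth; 1 ligand passed for shCDK19 in low glucose. With arrays of the compared experiments alone, 916 genes passed for hypoxia in shCDK8 cells, 60 for the shCDK19 effect in hypoxia, and 1 ligand (2 otherwise) for hypoxia in shControl cells.

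Leaving out 1 array gave 88 to 158 genes for shCDK8 in 5FU, 2 to 8548 for shCDK8 in hypoxia, 662 to 814 for shCDK19 in normal growth (0 to 1 ligands), 5 to 9 in 5FU (0 ligands each time), 0 to 4320 in hypoxia (0 to 1) and 1 to 2 ligands in low glucose. It gave 225 to 2987 genes and 0 to 1 ligands for 5FU against DMSO. For hypoxia against normal growth it gave 4549 (main 8801) to 12096 genes and 1 to 3 ligands in shControl cells, and 714 to 2372 genes and 0 to 1 ligands in shCDK8 cells. For the difference of shCDK19 effects it gave 445 to 619 genes in 5FU, and 80 to 4567 genes with 0 to 1 ligands in hypoxia.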
